A study of Mus musculus with 4 samples.

Results

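The genes described here were the colony-stimulating factors and their receptors: the ligands Csf1, Il34, Csf2, Csf3 and Flt3l and the receptors Csf1r, Csf2ra, Csf2rb, Csf3r and Flt3. They were taken by name and made up 10 of the 31053 genes listed, and all 10 were detected in at least 1 library. Single-cell RNA sequencing had been performed on carotid arteries of C57BL/6 mice. Arteries were taken at day 0 without injury and at day 3, day 7 and day 14 after deep wire injury. According to the authors, this injury strips the arterial lining and also disrupts the inner elastic layer. The mice were male and were 11 weeks old before injury according to the label. Vessels from several mice went into each pool, thrombosed ones were set aside, and the tissue was digested and depleted of dead cells. Each day was therefore 1 library with no biological replicate, so no p-value was computed, and every interval below is a 95% interval for counting error only. The question addressed was which cell classes held transcripts of each ligand, which held those of its receptor, and how the levels differed between days.

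Colony-stimulating factors are secreted proteins that control the survival, division and differentiation of myeloid cells. Csf1 and Il34 bind the receptor tyrosine kinase Csf1r on monocytes and macrophages, and Flt3l binds the related kinase Flt3 on dendritic cells and their precursors. Csf2 acts through a specific chain, Csf2ra, joined to the common beta chain Csf2rb, and Csf3 acts through Csf3r, the receptor that drives neutrophil production.

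The libraries held 333, 1689, 3001 and 1138 barcodes at day 0, day 3, day 7 and day 14, with 2672722, 18989081, 27973418 and 13329564 unique molecular identifiers (UMIs, each counting 1 captured transcript). After filtering, 329, 1508, 2693 and 1091 cells were kept, with median depths of 5688, 4818, 6317 and 9481 UMIs. Cells were clustered without the 10 genes, and clusters were called by the markers they carried, as fibroblast-like, smooth muscle-like and so on. Of 5621 cells, 508 (9.04%) stayed unnamed, among them 335 cells of day 7 (12.4% of that day) that carried monocyte or macrophage markers. Their clusters were shallow and also had a leading marker, or a larger share of the markers, of another class. Myeloid cells were few at day 0: 3 monocyte/macrophage-like cells, no dendritic-like cell and no neutrophil-like cell were kept, against 565, 140 and 234 at day 3. T cell-like cells numbered 23, 69, 373 and 98 by day. No neutrophil-like cell was kept at day 14. Values are given as CPM, the UMIs of a gene per 1000000 UMIs summed over a class on 1 day. A difference between days was called when log2(CPM + 10) differed by at least 1, for genes with at least 20 UMIs in the 2 sums and classes with at least 20 cells on both days. Sums of fewer cells were not compared between days, and their number of cells is given.

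The libraries shared cell barcodes. Day 0 and day 3 had 152 barcodes in common, of which 150 passed the filter in both libraries, and day 7 and day 14 had 64, of which 61 did. Day 3 and day 7 had 1 in common and the other pairs had 0. In 104 of the 152 barcodes the day 0 library held more UMIs, with a median ratio of 21.5, and in 48 the day 3 library held more, with a median ratio of 109. Where both copies of the 104 barcodes were named, 101 of 102 were named as the same class. The shallower copies made up 94 of the 244 fibroblast-like cells of day 3 (38.5%), but only 1.38% of their UMIs. Without the shallower copies, all 72 levels and all 90 ratios of the 10 genes that could be recomputed differed from the values below by no more than counting error or kept their call. Shares of cells changed more, since the fibroblast-like cells of day 3 with a Csf1 UMI went from 40.2% to 59.3%, those with a Flt3l UMI from 13.9% to 21.3% and those with a Csf1r UMI from 11.9% to 18.7%.

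**Figure D1:**
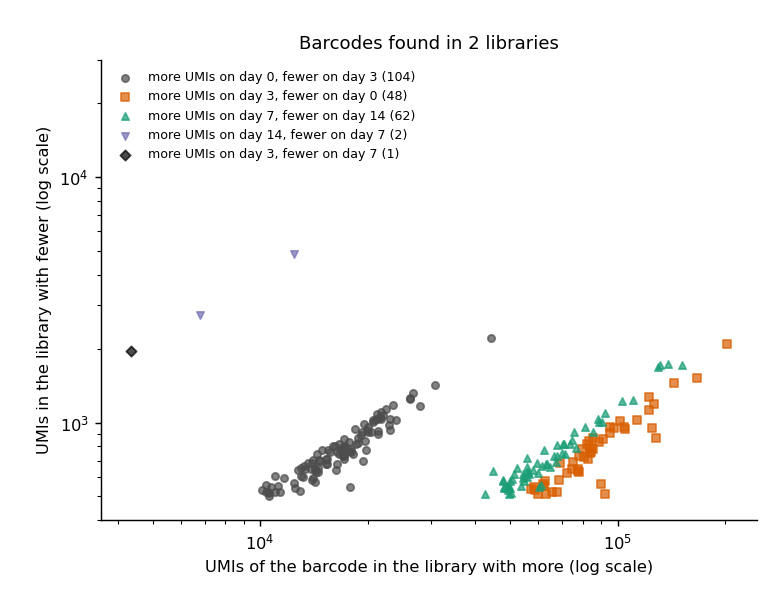
Depth of each barcode shared by 2 libraries, plotted as UMIs in the library with more against those in the other on log axes. Of the 152 barcodes shared by day 0 and day 3, 104 had more UMIs at day 0 and 48 had more at day 3. Colour and symbol mark which day had more.

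Most members had a preferred class, and the ligands and receptors were mostly found in different classes. Csf1 was highest in 4 named classes, the neutrophil-like, endothelial-like, fibroblast-like and smooth muscle-like cells. Csf1r was found mainly in monocyte/macrophage-like cells, Flt3 in dendritic-like cells and Csf3r in neutrophil-like cells. Csf2ra and Csf2rb were carried by all 3 of these myeloid classes. Over all days, fibroblast-like cells held 40.1% of the Flt3l UMIs, monocyte/macrophage-like cells 19.6%, T cell-like cells 17.2% and NK-like cells 7.24%. Csf2 UMIs lay mostly in lymphoid classes and 1 fibroblast-like cell, and Il34 and Csf3 were near the limit of detection. Their Ensembl gene identifiers are ENSMUSG00000014599 (Csf1), ENSMUSG00000031750 (Il34), ENSMUSG00000018916 (Csf2), ENSMUSG00000038067 (Csf3), ENSMUSG00000110206 (Flt3l), ENSMUSG00000024621 (Csf1r), ENSMUSG00000059326 (Csf2ra), ENSMUSG00000071713 (Csf2rb), ENSMUSG00000028859 (Csf3r) and ENSMUSG00000042817 (Flt3). Over all kept cells, Csf1 had 3748 UMIs in 1116 cells, Csf1r 10405 in 1980, Csf2ra 9039 in 2468, Csf2rb 4636 in 1622, Csf3r 2933 in 988, Flt3 1012 in 454 and Flt3l 760 in 630. The remaining 3 were sparser, with 165 UMIs in 49 cells for Csf2, 65 in 44 for Il34 and 51 in 12 for Csf3.

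**Figure D2:**
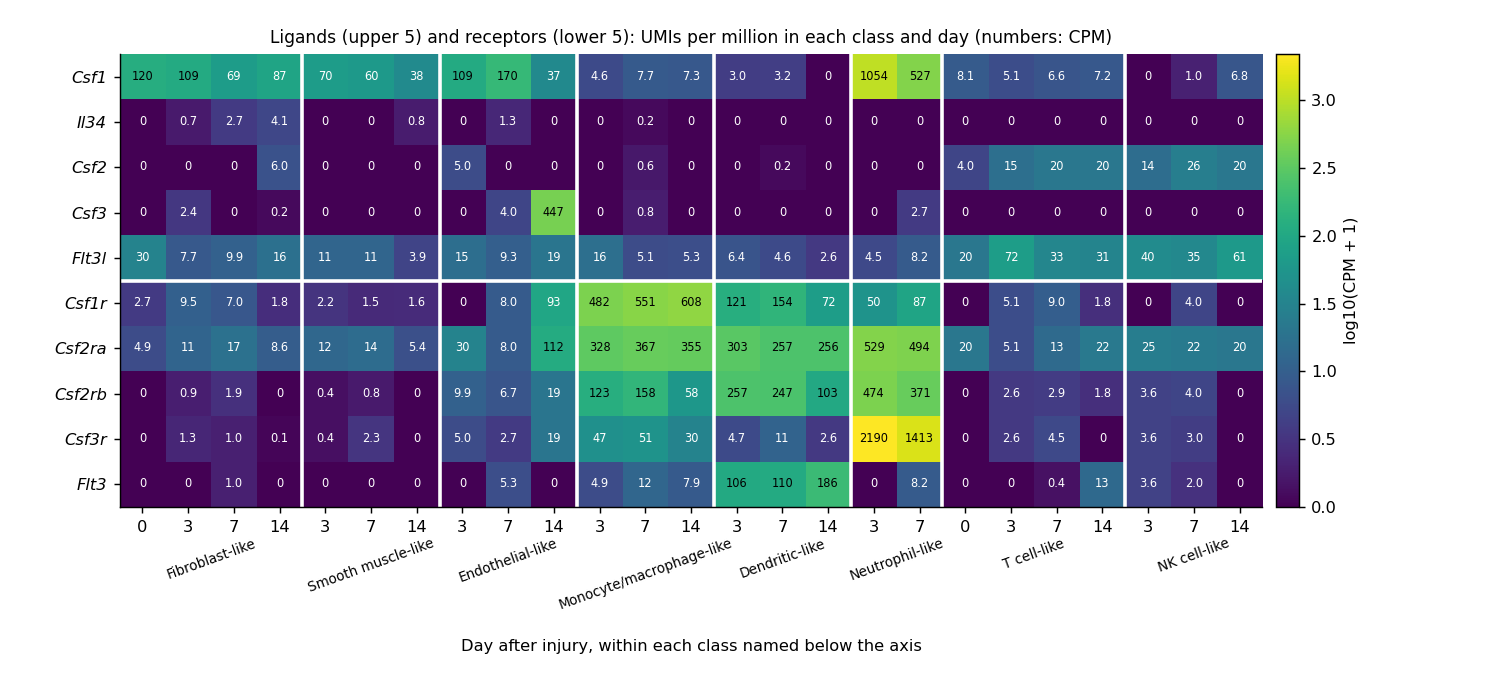
Level of each of the 10 genes (rows) in each cell class and day with at least 20 cells (columns), as CPM of summed counts on a log colour scale. Csf1 is highest in neutrophil-like cells, at 1054 CPM at day 3, and Csf3r is high in the same columns, at 2190 CPM at day 3.

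Across the 24 comparisons of days within a class, 94 member values could be tested for size and 11 passed the 2-fold limit. The share of all genes past that limit ran from 1.17% to 40.6% between comparisons, so counts of called members are read against the share of their own comparison.

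Promoter windows of 300 bases (250 before and 50 after the start) from RefSeq, build GRCm38.p6, matched 6 of the 10 genes: Csf1, Csf2, Csf2ra, Csf3r, Flt3 and Flt3l. Those of Csf1 and Csf3r are shown because this ligand and this receptor were both highest in the neutrophil-like cells. They were searched on both strands for GAGGAA, the core bound by PU.1, a myeloid transcription factor, and for GGGANNNNCC, an NF-kB site. Capitals mark the matches.
Csf1 chr3:107760420-107760719 minus strand: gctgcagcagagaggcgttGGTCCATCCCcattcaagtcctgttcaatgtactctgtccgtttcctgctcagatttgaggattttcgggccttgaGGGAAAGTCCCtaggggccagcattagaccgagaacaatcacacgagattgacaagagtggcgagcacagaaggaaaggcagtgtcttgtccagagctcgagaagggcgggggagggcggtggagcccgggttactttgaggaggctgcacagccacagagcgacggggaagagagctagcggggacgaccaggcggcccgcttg
Csf3r chr4:126024409-126024708 plus strand: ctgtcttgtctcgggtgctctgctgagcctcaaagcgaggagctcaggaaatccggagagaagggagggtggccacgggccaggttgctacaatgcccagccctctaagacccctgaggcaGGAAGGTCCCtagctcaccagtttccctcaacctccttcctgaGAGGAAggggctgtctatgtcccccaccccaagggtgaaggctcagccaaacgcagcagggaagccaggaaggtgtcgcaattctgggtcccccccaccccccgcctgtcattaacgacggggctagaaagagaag
The Csf1 window held 3 NF-kB matches, beginning 231, 155 and 154 bases before the start, and the latter pair overlap on opposite strands. The Csf3r window held 1 NF-kB match at 129 bases and 1 PU.1 match at 86 bases before the start. Of 27025 windows of the same length, 28.3% held GAGGAA and 20.5% held GGGANNNNCC, so either match is common. A search for TTNNGNAA, bound by C/EBP factors, matched 40.7% of the windows. In the other windows, Csf2ra held 2 PU.1 matches, at 14 and 8 bases before the start, and 1 C/EBP match at 31 bases, Flt3l held 1 NF-kB match 66 bases before it, Csf2 held 1 C/EBP match 145 bases before it and 1 NF-kB match that begins at base 23 after it, and Flt3 held none of the 3 motifs. These matches describe letters and not bound sites.

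Csf1, the ligand that sustains macrophages, stood at 106, 88.4, 37.8 and 65.6 CPM over all kept cells at day 0, day 3, day 7 and day 14. In fibroblast-like cells it was 120 (106 to 136), 109 (99.9 to 118), 68.6 (61.7 to 76.1) and 87.2 (81.2 to 93.5) CPM, from 269, 581, 355 and 785 UMIs. Fibroblast-like cells thus carried Csf1 on every day, with the lowest level at day 7. Relative to day 0 the level was 0.903-fold (0.780 to 1.05) at day 3, 0.571-fold (0.486 to 0.671) one time point later and 0.725-fold (0.630 to 0.836) on the last day. The day 7 and day 14 intervals lie below 1, but no ratio passed the 2-fold limit, and the level at day 14 was 1.27 times that of day 7 (1.12 to 1.44). A single fibroblast-like cell of day 3 held 68 of the 581 UMIs. The share of fibroblast-like cells with a Csf1 UMI was 45.9%, 40.2%, 46.3% and 57.4%, and with each cell thinned to 2000 UMIs it was 16.3%, 17.6%, 11.8% and 17.5%. Only 0.794% of natural killer-like (NK) cells had a Csf1 UMI, at a median depth of 5180 UMIs against 12692.5 in fibroblast-like cells, and none did after thinning.

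The fibroblast-like class was made up of different clusters on different days. A cluster led by Serpinf1 and Dcn held 58.1%, 17.2%, 35.5% and 22.2% of it by day, and a cluster led by Col1a1 held none at day 0 and 44.4% at day 14. Within the Serpinf1 cluster, Csf1 stood at 106, 78.3, 52.7 and 69.3 CPM, so the lowest value was again that of day 7. A cluster led by Clec3b and Dcn, of low depth (median 1183 UMIs), had 162 and 81.9 CPM at day 0 and day 14. At day 3 it had 116 CPM, but 93 of its 108 cells were shallower copies of barcodes of day 0, and the other 15 had 109 CPM (47.2 to 216). In the Col1a1 cluster Csf1 was 35.0 CPM at day 7 and 91.6 at day 14, and in a cluster led by Saa3 and Mmp3, seen at day 3 and day 7, it was 118 and 104 CPM.

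Neutrophil-like cells had the highest Csf1 level of any class. They stood at 1054 CPM (978 to 1135; 710 UMIs) at day 3 and 527 CPM (455 to 606; 193 UMIs) at day 7, a ratio of 0.499 (0.424 to 0.586) and a difference of -0.99 on the log2(CPM + 10) scale, just short of the limit. Csf1 UMIs were spread over 127 of 234 cells at day 3 and 57 of 119 at day 7, and the cell with the most UMIs held 46 and 14. After thinning, 53.6% and 43.0% of these cells had a Csf1 UMI. The class carried 9 of 10 neutrophil markers on both days, and none of the 5 member values tested between them was called, where 6.38% of all genes were. Neutrophil markers stood at a summed 46637 CPM at day 3 and 33571 CPM at day 7, and fibroblast markers at 827 and 1809 CPM. The part of these markers in the Csf1 and Csf3r values of these cells was not tested.

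Endothelial-like cells, the cells that line the vessel, held Csf1 at 109 CPM (68.6 to 166) at day 3, from 22 UMIs in 5 of 40 cells, and at 170 CPM (141 to 202) at day 7, from 127 UMIs in 16 of 55 cells. Few cells carried these levels, since at day 3 the top 2 cells held 11 and 8 of the 22 UMIs and at day 7 the top 2 held 32 and 17 of the 127. At day 14 only 2 UMIs were left in 24 cells (37.3 CPM), and both lay in shallower copies of barcodes shared with day 7. Csf1 was called lower at day 14 than at day 3 and at day 7, with ratios of 0.341 (0.0388 to 1.39) and 0.220 (0.0263 to 0.810). Among all genes, 40.6% and 33.5% were called in these comparisons (29.6% and 25.8% lower), so the calls say little about Csf1. When the CPM of single cells was averaged, the differences were -0.061 and -0.61 and neither was called. In the day 14 sum the monocyte/macrophage markers stood at a summed 4734 CPM, as high as the endothelial markers, against 179 and 178 CPM on the earlier days, and their part in the Csf1 values was not tested. Endothelial-like cells had a median of 0.319%, 4.10% and 0.289% mitochondrial UMIs at day 3, day 7 and day 14. Their median depths were 1112.5, 1706 and 909.5 UMIs, and the part of either difference was not tested. Between day 3 and day 7 the 1 member tested, Csf1, was not called, where 16.8% of all genes were. In smooth muscle-like cells, the contractile cells of the arterial wall, Csf1 stood at 70.1 (60.5 to 80.8), 60.4 and 38.1 (28.2 to 50.4) CPM at day 3, day 7 and day 14. Cell cycle genes in these sums stood at 296, 500 and 2.33 CPM by day. Fibroblast markers stood at 6040, 12856 and 6945 CPM and neutrophil markers at 44.8, 983 and 76.3 CPM. Of the 10 neutrophil markers, only 0, 1 and 1 stood at 50 CPM or more by day, and of the 9 fibroblast markers 3, 5 and 5. The part of these genes in the Csf1 values was not tested. Day 0 held only 17 smooth muscle-like cells, so day 3 was used as the base, and the day 14 ratio of 0.544 (0.389 to 0.748), a difference of -0.73, was not called, although it was at resolution 2 (-1.02). Of the 3 members tested in smooth muscle-like cells, none was called, against 2.11% of all genes between day 3 and day 7, 5.21% between day 3 and day 14 and 4.76% between day 7 and day 14.

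In the classes highest in Csf1r, the receptor of Csf1, the ligand was low. Csf1 stood at 4.59, 7.74 and 7.28 CPM in monocyte/macrophage-like cells, at 2.99, 3.20 and 0 CPM in dendritic-like cells at day 3, day 7 and day 14 (a count of 0 allows up to 7.75 CPM). T cell-like cells were at a like level, with 8.09, 5.12, 6.57 and 7.24 CPM at day 0 to day 14. Neutrophil-like cells were the highest named class on both days on which they were found. Endothelial-like and fibroblast-like cells did not keep 1 order, since both stood at 109 CPM at day 3, and endothelial-like cells were higher at day 7 and lower at day 14, from few cells. The share of each day's Csf1 UMIs followed both level and number of cells. Fibroblast-like cells held 96.1%, 36.1%, 35.5% and 91.5% of the UMIs, and neutrophil-like cells held 44.1% at day 3 and 19.3% at day 7. The shares of neutrophil-like cells were 86.1% and 48.8% when the CPM of single cells was averaged, and 65.5% and 28.3% without both copies of shared barcodes. At day 7 endothelial-like cells held 12.7% and unnamed cells 13.8%.

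**Figure D3:**
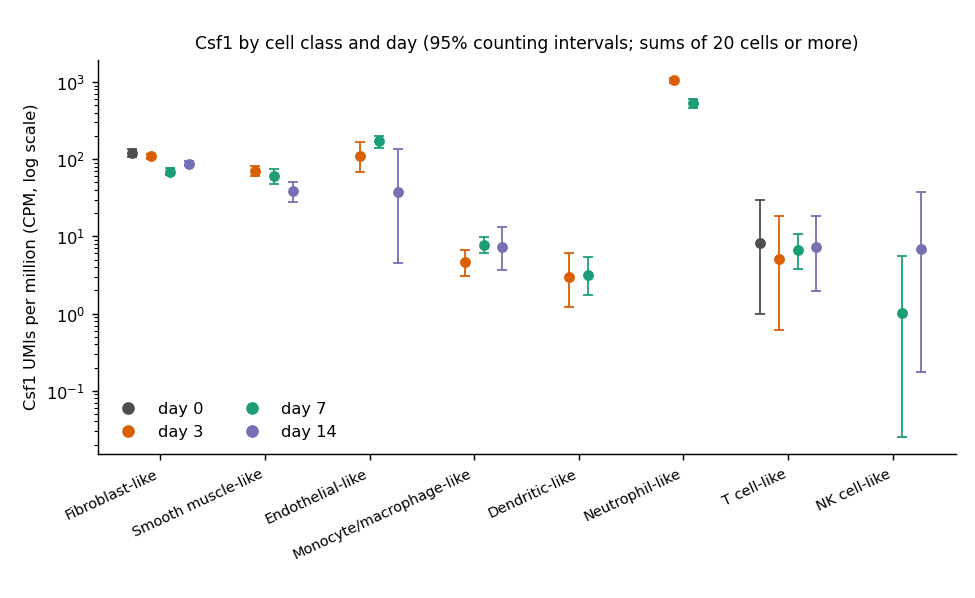
Csf1 level in each cell class by day, as CPM of summed counts on a log axis with 95% counting intervals; sums with no Csf1 UMI are not drawn. Neutrophil-like cells sit at 1054 and 527 CPM, above the fibroblast-like points at 68.6 to 120 CPM and the monocyte/macrophage-like points at 4.59 to 7.74 CPM.

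Il34, the second ligand of Csf1r, was rare. Fibroblast-like cells held no Il34 UMI at day 0 (limit 1.34 CPM) and 4 UMIs (0.748 CPM) at day 3. They held 14 UMIs (2.71 CPM, 1.48 to 4.54) at day 7 and 37 UMIs in 25 of 559 cells (4.11 CPM, 2.89 to 5.67) at day 14. The intervals of day 7 and day 14 overlap, and the level at day 14 is above the limit for day 0.

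Csf2, the granulocyte-macrophage factor, was found in T cell-like and NK-like cells. In T cell-like cells a single UMI was found at day 0 and 6 UMIs (15.4 CPM) at day 3, followed by 49 UMIs in 18 of 373 cells (20.1 CPM) and 11 UMIs in 7 cells (19.9 CPM) on the later days. At day 7, 2 cells held 13 and 11 of the 49 UMIs. NK-like cells had 4 UMIs at day 3 (14.5 CPM), 26 in 8 of 160 cells at day 7 (26.2 CPM), of which 15 lay in 1 cell, and 3 at day 14 (20.4 CPM). The intervals of the 2 classes overlapped on each day from day 3 on. Csf2 was called higher in T cell-like cells at day 7 than at day 0, but against a single UMI, with a ratio of 4.97 (0.852 to 200); 1 of 4 members was called, where 19.8% of all genes were called and 10.3% were higher. Of the 23 T cell-like cells of day 0, 11 lay in the cycling cluster, and the other 12 were too few for a comparison. At day 14, 54 of the 68 Csf2 UMIs lay in 1 fibroblast-like cell. Neutrophil-like cells held no Csf2 UMI, with limits of 4.45 CPM at day 3 and 8.18 CPM at day 7, and 0.196% of dendritic-like cells had one, at a median depth of 13841 UMIs.

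Csf3, the granulocyte factor, came from 12 cells. At day 3 it had 13 UMIs in 5 fibroblast-like cells, with 9 in 1 cell, and at day 7 it had 8 in 1 monocyte/macrophage-like cell and 3 in 1 endothelial-like cell. At day 14, 24 of 26 UMIs lay in 2 of 24 endothelial-like cells, with 21 in 1 cell. This gave 447 CPM against 4.01 CPM at day 7 and 0 at day 3 (limit 14.9), and Csf3 was called higher against both days (11.1% and 7.69% of all genes were), but without the cell with the most UMIs it had too few UMIs to test. The endothelial-like sum of day 14 held monocyte/macrophage markers at the level of its endothelial markers, with 9 of 15 at 50 CPM or more, and their part in the Csf3 value was not tested.

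Flt3l, the ligand of Flt3, was highest in lymphoid cells when days were pooled, at 38.9 CPM in NK-like and 36.1 CPM in T cell-like against 14.0 CPM in fibroblast-like cells, although at day 0 fibroblast-like cells stood higher (30.4 CPM) than T cell-like cells (20.2 CPM, 5 UMIs). In T cell-like cells it stood at 20.2 (5 UMIs), 71.7 (47.7 to 104; 28 UMIs), 33.2 (26.4 to 41.3; 81 UMIs) and 30.8 CPM (17 UMIs) at day 0, day 3, day 7 and day 14, and in NK-like cells at 39.8, 35.3 and 61.3 CPM from day 3 on. In T cell-like cells the day 3 value was 3.55 times (1.35 to 11.8) that of day 0, and it was the only member tested and was called higher, where 25.4% of all genes were called and 13.1% were higher. The difference of 1.44 on the log2(CPM + 10) scale was 0.74, and no longer called, when the CPM of single cells was averaged. The 2 sums differed in makeup. Of the 23 cells of day 0, 11 lay in a cluster of cycling cells, against 5 of 69 at day 3, and NK markers stood at a summed 295 CPM at day 0 and 2060 CPM at day 3, whose part was not tested. Without the cycling cells, Flt3l was 45.3 CPM (12.4 to 116; 4 UMIs in 12 cells) at day 0 and 74.8 CPM (49.7 to 108) at day 3, and these intervals overlap. At day 14 against day 0, 1 member was tested in these cells and was not called, where 23.5% of all genes were. NK-like cells had no member called, of 3 tested between day 3 and day 7 (5.96% of all genes called), of 1 between day 3 and day 14 (8.94%) and of 3 between day 7 and day 14 (8.34%). Flt3l UMIs were seen in 20.8% of T cell-like and 1.70% of neutrophil-like cells, whose median depths were 5477 and 2912 UMIs.

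In fibroblast-like cells Flt3l was lower at day 3 and day 7 than at day 0 in the summed counts. By day, its level was 30.4 CPM (23.6 to 38.5; 68 UMIs), 7.66 CPM (5.50 to 10.4; 41 UMIs), 9.86 CPM (7.34 to 13.0; 51 UMIs) and 16.1 CPM (13.6 to 19.0; 145 UMIs). The ratio to day 0 was 0.252 (0.167 to 0.377) at day 3 and 0.324 (0.221 to 0.473) at day 7, and both were called lower, on the log2(CPM + 10) scale by -1.19 and -1.02. Other markers moved in the same sums. From day 0 to day 3, neutrophil markers went from 3.58 to 738 CPM, monocyte/macrophage markers from 38.4 to 401 CPM and cell cycle genes from 16.5 to 504 CPM. At day 3 only 1 of 10 neutrophil and 1 of 15 monocyte/macrophage markers stood at 50 CPM or more. All 6 cell cycle genes did, and the neutrophil markers Cxcr2, Retnlg and Ly6g had no UMI, so these sums do not show whole marker sets. The part of all these genes in the Flt3l values was not tested. At day 14 the ratio was 0.530 (0.395 to 0.718) and was not called. Flt3l was the 1 member called of 4 tested at day 3 and at day 7, where 8.52% and 7.4% of all genes were called (4.12% and 3.29% lower), and none of 6 was called at day 14, where 4.04% were. Between day 3 and day 7, none of 4 was called (2.63% of all genes), and between day 7 and day 14 none of 6 (2.85%). When cells were weighted equally, by averaging the CPM of single cells, the differences were -0.37 and -0.42 and the calls were lost. In the Serpinf1 cluster Flt3l was 33.7, 13.2, 10.8 and 30.8 CPM by day, and in the Clec3b cluster it was 24.2 and 25.2 CPM at day 0 and day 14. At day 3 the Clec3b cluster could not be read, because 93 of its 108 cells were shallower copies of barcodes of day 0 and only 3 Flt3l UMIs lay in the other 15. Low values were found in the Saa3 cluster (4.84 and 1.89 CPM at day 3 and day 7) and the Col1a1 cluster (8.17 and 9.41 CPM at day 7 and day 14), neither of which was present at day 0.

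In monocyte/macrophage-like cells Flt3l fell short of a call, at 15.7 CPM (12.6 to 19.2; 92 UMIs) at day 3, 5.06 (49 UMIs) at day 7 and 5.30 (8 UMIs) at day 14, a ratio of 0.323 (0.224 to 0.462) for day 7 to day 3. With their larger number of cells they held 40.4% of the Flt3l UMIs of day 3, whereas fibroblast-like cells held 93.2% of those of day 0 and 77.5% of those of day 14. Of the exon bases of Flt3l, 21.4% overlap the same-strand gene Gm45713, which had no UMI, so reads shared by both may have been dropped.

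Csf1r, the receptor for Csf1 and Il34, stood at 482 (465 to 500; 2834 UMIs), 551 (536 to 566; 5333) and 608 CPM (569 to 648; 918) in monocyte/macrophage-like cells at day 3, day 7 and day 14. The level thus differed little between days, with ratios to day 3 of 1.14 (1.09 to 1.20) and 1.26 (1.17 to 1.36), neither past the limit. At day 0 the 3 cells of this class held 21 of the 27 Csf1r UMIs of that library. The class held 88.2%, 86.2% and 94.1% of all Csf1r UMIs at day 3, day 7 and day 14. After thinning, 58.3%, 61.1% and 66.9% of its cells had a Csf1r UMI, against 84.6%, 86.8% and 78.1% unthinned. In T cell-like cells, which should lack the receptor, 2.90%, 5.90% and 1.02% did unthinned and 1.64%, 2.66% and 0% thinned, and the median depths of the classes were 8517 and 5477 UMIs.

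The makeup of the class changed between days. A cluster led by C1qa and C1qb held 9.38% of it at day 3, 27.1% at day 7 and 66.3% at day 14, a cluster led by Lyz2 and Pf4 held 52.2% at day 3 and 4.70% at day 7, and a cluster led by Lyz2 and Il1b held 11.2%, 43.5% and 8.16%. Csf1r was highest in the C1qa cluster and level over days there, at 692, 712 and 664 CPM. It stood at 445 and 451 CPM in the Il1b cluster and at 467 and 460 CPM in the Pf4 cluster at day 3 and day 7. A cluster led by Acp5 and H2-Ab1 had 489, 599 and 456 CPM. The cells of this last cluster were shallow, with a median of 2376.5 UMIs, and had a median of 14.2% mitochondrial UMIs, against 3.09% in the C1qa cluster and 4.09% in the Il1b cluster. Clustering each library on its own gave a day 14 difference from day 3 of -0.13 in place of 0.33 for Csf1r, so the small rise depended on how the class was drawn.

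Dendritic-like cells held Csf1r at 121 (108 to 136), 154 (143 to 166) and 72.3 CPM (48.1 to 105), with a ratio of day 14 to day 7 of 0.470 that fell just short of a call at -0.99. It was called under 6 alternatives and stood at -1.63 at resolution 2. Monocyte/macrophage markers in these sums stood at 2588, 2979 and 2769 CPM, beside 3145, 2838 and 2420 CPM of dendritic markers, and their part in the Csf1r values was not tested. The class was uneven, because the cluster led by Ifitm1 and Cd74 had 146, 177 and 93.5 CPM and the cluster led by Ccr7 and Ccl22, markers of migrating dendritic cells, had 3.05 and 11.4 CPM at day 3 and day 7. Neutrophil-like cells held 50.5 and 87.3 CPM of Csf1r beside monocyte/macrophage markers at a summed 2879 and 3456 CPM, whose part was not tested. Fibroblast-like cells held 2.68, 9.53, 6.96 and 1.78 CPM. The monocyte/macrophage markers in those sums stood at 38.4, 401, 274 and 194 CPM, with at most 1 of 15 at 50 CPM or more. After thinning, at most 1.69% of fibroblast-like cells had a Csf1r UMI, against at most 2.66% of T cell-like cells.

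**Figure D4:**
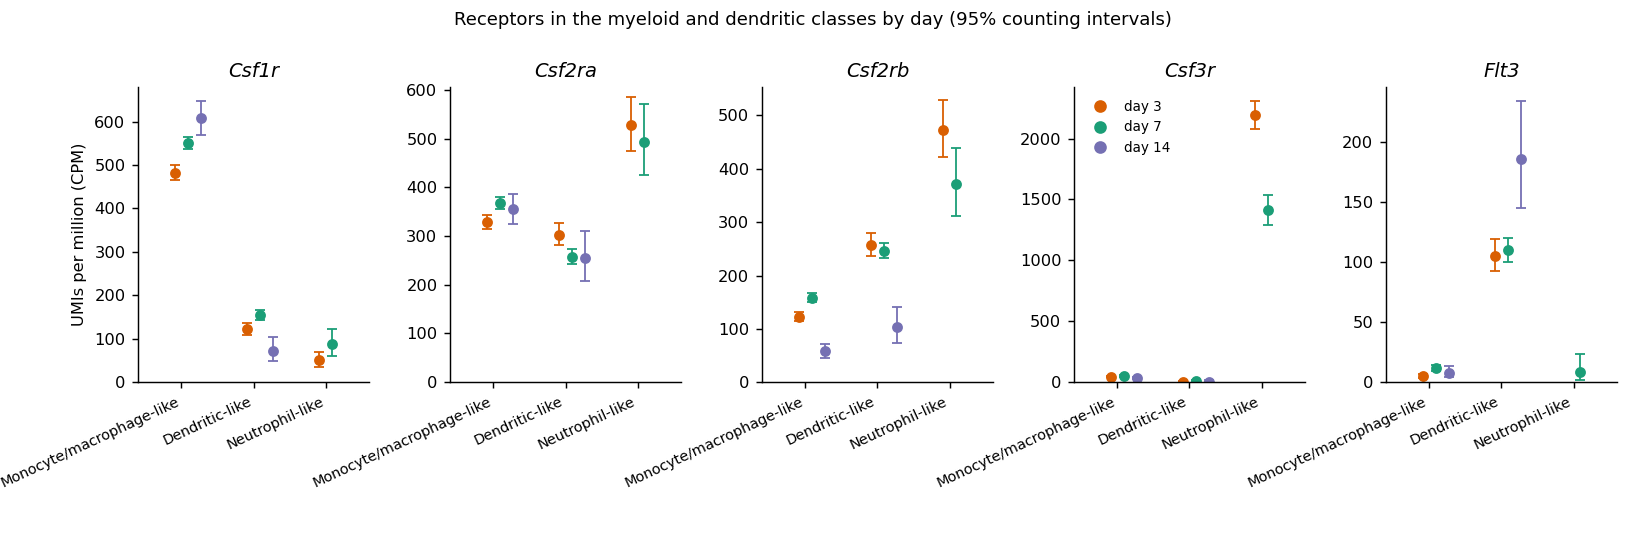
Levels of the receptors in monocyte/macrophage-like, dendritic-like and neutrophil-like cells at day 3, day 7 and day 14, as CPM of summed counts on linear axes from 0 with 95% counting intervals. Csf1r in monocyte/macrophage-like cells runs from 482 to 608 CPM, while Csf2rb in the same cells is at 123, 158 and 57.6 CPM.

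Csf2ra, the chain specific to Csf2, was present in all 3 myeloid classes and differed little between days. It stood at 529 (475 to 586) and 494 CPM (424 to 571) in neutrophil-like cells at day 3 and day 7. In monocyte/macrophage-like cells it was 328 (314 to 343), 367 (356 to 380) and 355 CPM (325 to 386), and in dendritic-like cells 303 (281 to 326), 257 (243 to 273) and 256 CPM (208 to 311). Neutrophil-like cells were above both other classes at day 3 and day 7. In the Acp5 cluster Csf2ra was 546, 551 and 980 CPM at day 3, day 7 and day 14, the last from 32 cells of a cluster with a high mitochondrial share. Fibroblast-like cells held 4.92, 11.0, 16.6 and 8.55 CPM, and the day 7 ratio to day 0 of 3.38 (1.80 to 7.02) was not called at 0.84 on the log2(CPM + 10) scale, but was past the limit at 1.58 with each library clustered on its own, at 1.39 when the CPM of single cells was averaged and at 1.35 without both copies of shared barcodes. The monocyte/macrophage markers in these sums stood at 38.4, 401, 274 and 194 CPM by day, with at most 1 of 15 at 50 CPM or more. They were highest at day 3, whereas Csf2ra was highest at day 7, and their part was not tested.

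Csf2rb, the common beta chain, was lower at day 14. In monocyte/macrophage-like cells it stood at 123 (114 to 132; 724 UMIs), 158 (150 to 166; 1532) and 57.6 CPM (46.1 to 71.0; 87). The ratio of day 14 to day 7 was 0.364 (0.290 to 0.452), a difference of -1.32 that was called lower, and it stayed past the limit under every alternative that was run, at -1.18 to -1.41. It was the 1 member called of 7 tested, where 1.82% of all genes were called and 1.11% were lower. Dendritic markers in the same sums stood at 313, 457 and 201 CPM and neutrophil markers at 80.6, 240 and 31.1 CPM by day. Of the 10 neutrophil markers, 0, 2 and 0 stood at 50 CPM or more, and of the 11 dendritic markers 3, 4 and 1. Their part in the Csf2rb values was not tested. Against day 3 the ratio was 0.468 (0.370 to 0.585), a difference of -0.98, and none of 7 members was called at day 14, where 4.76% of genes were, or at day 7, where 1.93% were. Of these cells, 52.4%, 60.8% and 27.0% had a Csf2rb UMI, and 23.6%, 25.4% and 10.3% did after thinning, against at most 1.88% of T cell-like cells unthinned on any of these days.

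Dendritic-like cells held Csf2rb at 257 (237 to 279; 602 UMIs), 247 (232 to 262; 1079) and 103 CPM (73.8 to 141; 40). The day 14 value was called lower than that of day 3 at a ratio of 0.401 (0.284 to 0.553) and lower than that of day 7 at 0.419 (0.298 to 0.574). The latter call was lost, at -0.98, when the members were among the variable genes used to cluster. Csf2rb was the 1 member called of 4 tested against day 3 and of 6 against day 7, where 5.51% and 3.47% of all genes were called (2.8% and 1.63% lower), and none of 7 was called between day 3 and day 7, where 1.17% were. The day 14 sum rested on 43 cells. Cell cycle genes in the dendritic-like sums stood at 220, 120 and 542 CPM and neutrophil markers at 124, 241 and 116 CPM by day. On each day 1 of the 10 neutrophil markers stood at 50 CPM or more, and 2, 0 and 5 of the 6 cell cycle genes did. Their part in the Csf2rb values was not tested. Neutrophil-like cells were above both classes, at 474 (423 to 529) and 371 CPM (311 to 439).

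The difference between day 7 and day 14 was seen within clusters too. In the C1qa cluster Csf2rb was 59.2, 88.8 and 49.1 CPM, in the Acp5 cluster 319, 245 and 82.8 CPM, and in the Ifitm1 dendritic-like cluster 250, 245 and 104 CPM. The day 14 intervals were 37.0 to 63.9 (55 UMIs), 30.4 to 180 (6 UMIs in 32 cells) and 70.1 to 148 CPM (30 UMIs). In the C1qa cluster the day 14 interval overlaps that of day 3 (41.3 to 82.4 CPM). The Il1b cluster, which was large at day 7 and had too few cells at day 14, stood higher, at 217 and 227 CPM. The day 14 value of monocyte/macrophage-like cells thus came with both a lower level than at day 7 in the C1qa and Acp5 clusters and a larger share of the C1qa cluster, where Csf2rb was below the Il1b and Acp5 clusters at day 3 and day 7. The Ccr7 cluster had 351 and 284 CPM at day 3 and day 7. Of the windows of 98 bases in Csf2rb transcripts, 5.87% also occur in its paralog Csf2rb2, and 0.248% of those in the last 500 bases do; for windows of 50 bases the shares are 16.4% and 3.33%. Reads in such windows cannot be assigned to 1 of the 2 genes, and how many there were was not measured.

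Both chains were also found in single cells. Csf2ra and Csf2rb UMIs were found together in 263 of 565, 523 of 957 and 45 of 196 monocyte/macrophage-like cells, in 110 of 140, 236 of 328 and 20 of 43 dendritic-like cells and in 101 of 234 and 39 of 119 neutrophil-like cells. After thinning to 2000 UMIs this was 12.6%, 14.9% and 2.94% of monocyte/macrophage-like, 12.4%, 13.3% and 8.82% of dendritic-like and 34.4% and 28.0% of neutrophil-like cells, so most of these counts depend on the depth of each cell. Csf1r and Csf2rb were found together in 269, 540 and 49 monocyte/macrophage-like cells, and after thinning in 12.6%, 15.0% and 7.35%. No share of cells with both was measured in a class that should lack them.

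**Figure D5:**
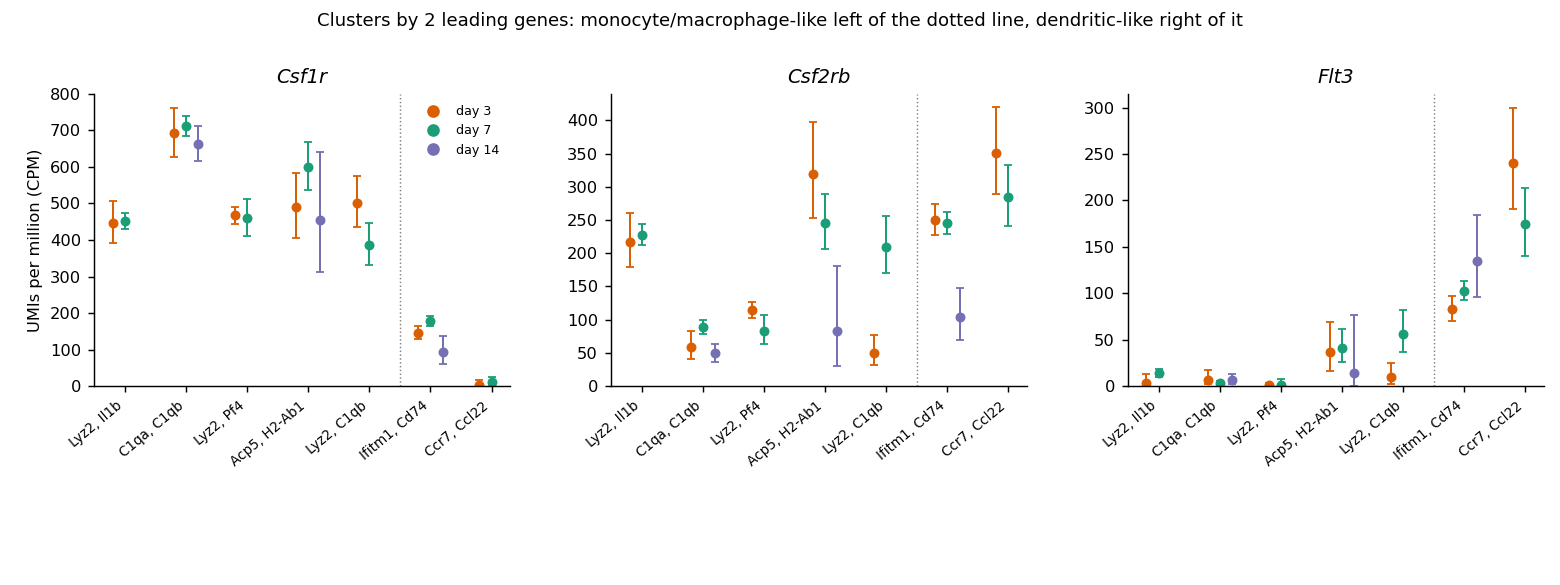
Csf1r, Csf2rb and Flt3 levels in the monocyte/macrophage-like and dendritic-like clusters, named by their 2 leading genes, as CPM of summed counts by day with 95% counting intervals. Csf1r is highest in the C1qa cluster at 664 to 712 CPM and near 0 in the Ccr7 cluster at 3.05 and 11.4 CPM, where Flt3 is at 241 and 174 CPM.

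Csf3r, the receptor for Csf3, stood at 2190 CPM (2080 to 2305; 1475 UMIs) in neutrophil-like cells at day 3 and 1413 CPM (1294 to 1540; 518 UMIs) at day 7. The ratio of 0.645 (0.583 to 0.714) was not called, although its interval lies below 1. It was detected in 222 of 234 and 106 of 119 of these cells, and after thinning in 93.2% and 81.7%, against 1.95% of T cell-like cells unthinned, at median depths of 2912 and 5477 UMIs. Neutrophil-like cells that held Csf3r also held Csf1 in 119 and 50 cells and Csf2rb in 137 and 58 cells, or 35.5% and 41.9% of the thinned cells of day 7. In monocyte/macrophage-like cells Csf3r was 46.6, 50.7 and 30.4 CPM, in sums whose neutrophil markers stood at 80.6, 240 and 31.1 CPM. Of those 10 markers, 0, 2 and 0 stood at 50 CPM or more. The part of those markers was not tested. With no neutrophil-like cell at day 14, monocyte/macrophage-like cells held 93.9% of the Csf3r UMIs of that day, compared with 15.5% at day 3 and 44.3% at day 7.

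Flt3, the receptor of Flt3l, stood at 106 (92.9 to 120), 110 (101 to 120) and 186 CPM (146 to 234) in dendritic-like cells. The day 14 value was 1.76 times (1.33 to 2.30) that of day 3 and 1.69 times (1.30 to 2.17) that of day 7, and neither ratio was called. In the same class, the ratios of day 14 to day 7 were 0.419 for Csf2rb and 0.470 for Csf1r, so the 3 receptors did not differ in 1 direction. Dendritic-like cells held 89.2%, 75.1% and 77.4% of the Flt3 UMIs, and 62.1%, 62.5% and 48.8% of them had one, against 24.1%, 20.4% and 23.5% after thinning. At most 3.06% of T cell-like cells had a Flt3 UMI on any of these days. The Ccr7 cluster stood at 241 and 174 CPM and the Ifitm1 cluster at 82.6, 103 and 135 CPM. Flt3 and Csf1r UMIs were found together in 51, 113 and 5 dendritic-like cells, and after thinning in 3.65%, 3.88% and 2.94%. The 10 plasmacytoid dendritic-like cells of day 7 had 154 CPM of Flt3 (89.9 to 247; 8 of 10 cells) and 236 CPM of Csf2rb (154 to 346; 9 of 10 cells). In monocyte/macrophage-like cells Flt3 was 4.93, 11.7 and 7.94 CPM. The order of its days depended on how the class was drawn, since clustering each library on its own gave a difference of day 14 from day 7 of 1.57 in place of -0.27, and from day 3 of 1.78 in place of 0.26.

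Genes of the pathway were taken as 3 lists: 9 related cytokines and receptors, 15 signal transduction and transcription factors and 8 genes known to respond to the Csf2 receptor. Calls on these lists follow the same 2-fold limit. In monocyte/macrophage-like cells at day 7 against day 3, 1 of 15 signal genes was higher, where 1.93% of all genes were called either way. This was Socs3, which restrains cytokine signalling, at 369 against 153 CPM, and 1 of 8 responders was higher, the cytokine Osm at 194 against 66.7 CPM. Neutrophil markers in these sums stood at 80.6 CPM at day 3 and 240 CPM at day 7, and their part was not tested. Of the 10 markers, 0 and 2 stood at 50 CPM or more. At day 14 against day 3, 1 of 15 signal genes was higher and 1 of 7 responders was higher and 1 lower, where 4.76% of all genes were called. Socs3 was 534 CPM, the lipid regulator Pparg was 37.7 against 10.4 CPM, and the chemokine Ccl17 was lower at 1.32 against 19.6 CPM. In dendritic-like cells 2 of 7 responders were lower at day 7, Ccl17 at 85.7 against 296 CPM and Ccl22 at 156 against 489 CPM, and 1 of 15 signal genes, Socs3, was higher at 342 against 142 CPM, where 1.17% of all genes were called. At day 14 against day 3, 1 of 3 related genes was higher and 1 lower, 2 of 15 signal genes were higher and 2 of 7 responders were lower, where 5.51% of all genes were called and 2.8% were lower. Of these, Irf8, a factor of dendritic cell development, was 483 against 207 CPM, Csf2rb2 was lower at 23.2 against 59.0 CPM, and Ccl22 stood at 69.7 CPM. In fibroblast-like cells Il3ra, the receptor chain for Il3, was higher at day 3 and day 7, at 38.7 and 49.1 against 10.7 CPM (8.52% and 7.4% of all genes called), and Kitl, the ligand of the receptor Kit, was lower at day 7 at 4.64 against 24.1 CPM. In total 2 of 3 related genes were higher and 1 lower in fibroblast-like cells at day 7, and 1 of 14 signal genes was higher, where 7.4% of all genes were called. That signal gene was Tyrobp, an adaptor protein of myeloid cells, with 112 UMIs against 0. The monocyte/macrophage markers in these 2 sums stood at 274 CPM at day 7 and 38.4 CPM at day 0. Of these 15 markers, 1 at day 7 and 0 at day 0 stood at 50 CPM or more. The part of those markers was not tested. Socs3 was also called higher in fibroblast-like cells at day 14 (239 against 82.7 CPM at day 0, 4.04% of all genes called), in smooth muscle-like cells at day 14 (104 against 28.6 CPM at day 3, 5.21%), in endothelial-like cells at day 7 (127 against 24.9 CPM at day 3, 16.8%), in NK-like cells at day 7 (144 against 65.2 CPM at day 3, 5.96%) and in T cell-like cells at day 7 (130 against 28.3 CPM at day 0, 19.8%). Monocyte/macrophage markers in the T cell-like sums stood at 174 CPM at day 0 and 745 CPM at day 7, and their part was not tested. In T cell-like cells, whose day 0 sum held many cycling cells, the kinase Pim1 and the cytokine-signalling inhibitor Cish were called higher than at day 0 on all 3 later days as well, and at day 7 they stood at 456 against 97.1 CPM and 101 against 32.4 CPM. Of all genes, 25.4%, 19.8% and 23.5% were called in these comparisons at day 3, day 7 and day 14. NK markers in these sums stood at 295 CPM at day 0 and at 2060, 523 and 471 CPM on the later days. Their part was not tested. Neutrophil-like cells had none of 16 list genes called between day 3 and day 7, where 6.38% of all genes were. Il3 and Il5ra had no UMI.

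Over the 26 sums of a class on a day with at least 20 cells, and 12722 genes, the members with at least 100 UMIs were compared in pattern with all other genes by Pearson's r of log2(CPM + 10). The sums share libraries and depth, so r is a description. The closest gene was Oscp1 for Csf1 (r = 0.890), Cd68 for Csf1r (0.964), Nkg7 for Csf2 (0.936), Alox5ap for Csf2ra (0.974), Cd300a for Csf2rb (0.983), Trem3 for Csf3r (0.987) and Kcne3 for Flt3 (0.977). After these came Sgms2 (0.883) and Optn (0.860) for Csf1, Lyz2 (0.963) and Dpep2 (0.957) for Csf1r, Klrc1 and Ctsw (both 0.933) for Csf2 and Pirb (0.973) and Cd300a (0.971) for Csf2ra. Likewise Clec4n (0.976) and Pirb (0.972) followed for Csf2rb, Mmp8 (0.982) and P2ry13 (0.975) for Csf3r and Tspan33 (0.963) and Bex6 (0.957) for Flt3. For Flt3l, Rundc3b (0.846) and Hsd11b1 (0.845) were among the closest. Among the members, Csf2ra and Csf2rb had r = 0.949 and Csf1 and Csf1r had r = -0.16.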

How the data were processed

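Droplet 3' single-cell libraries of 4 time points were used. The deposited gene-by-barcode matrices hold UMI counts per gene and cell that the authors made with Cell Ranger, whose version is 3.0.2 in the file headers; the genome build named by the submitters is a human one, while the gene identifiers are those of mouse, so no coordinate was taken from it. The members and all lists were chosen with earlier results of these data known. Cells with at least 200 genes and at most 20% mitochondrial UMIs were kept (453 barcodes removed), and the barcodes with the highest Scrublet scores were removed as doublets at 0.8% per 1000 barcodes of a library (106), since the caller's own threshold marked 17.

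Counts were scaled to 10000 per cell, and 2000 variable genes without the members and pathway lists, 30 components, 15 neighbours and Leiden resolution 1 gave 24 clusters, and splitting 2 unnamed ones of at least 60 cells again at resolution 0.5 gave 32 (Python 3.11.15, scanpy 1.11.5, leidenalg 0.10.2, igraph 0.11.9, numpy 2.4.6, scipy 1.17.1, anndata 0.12.19). A cluster was named from its markers where at least 3 were at 50 CPM or more, and extra demands on clusters with low depth were set after the clusters had been seen. Each of 121 cells of a cycling cluster took the class whose marker profile it correlated with best. CPM of summed counts with exact Poisson intervals, shares with exact Clopper-Pearson intervals and ratios with exact conditional binomial intervals were computed at 95%. A count of 0 was given the limit of 3 counts. Intervals cover counting error only. All 10 members were named, together with the 3 genes nearest in pattern to each member with at least 100 UMIs, and the list genes past 2-fold, at most 4 per comparison, of which a part is given; 1 gene near in pattern is not reported here. The calling step was tested on simulated data. Smooth muscle-like cells were compared with day 3 and not day 0, as day 0 held too few, and T cell-like cells were also compared with day 0. Alternatives were no doublet removal, resolutions 0.5 and 2, each library clustered alone, members among the variable genes, cells of at least 1000 UMIs and averaging the CPM of single cells. Those added after seeing the data left out shared barcodes, cycling cells, cells over 10% mitochondrial UMIs, the cell with the most UMIs of a member, or the extra naming demands.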

Additional observations from a re-analysis of the deposited data

How the results depend on the processing

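No paired analysis was possible because each day had 1 library and no replicate, and no called value changed sign. Of those not called, Flt3 in monocyte/macrophage-like cells at day 14 against day 7 went from -0.27 to 1.57 with each library clustered alone, and Csf2 in NK-like cells from -0.25 to 1.03 when the CPM of single cells was averaged. Where a value moved, the cause was not tested. The 11 calls became 17 without doublet removal, 18 with each library clustered alone and 7 without the shallower copies of shared barcodes, where day 14 held too few endothelial-like cells to test. When the CPM of single cells was averaged, the log2 difference of Flt3l in fibroblast-like cells was -0.37 at day 3 and -0.42 at day 7, of Csf1 in them -0.39 at day 7, and of Csf1r in monocyte/macrophage-like cells 0.45 at day 14. Of the 11 calls, 5 were then lost, the pair of Flt3l in fibroblast-like cells, the pair of Csf1 in endothelial-like cells and Flt3l in T cell-like cells (0.74). The share of Csf1 UMIs was then 77.2% at day 0 and 82.5% at day 14 in fibroblast-like cells and 86.1% and 48.8% in neutrophil-like cells at day 3 and day 7, that of Csf1r in monocyte/macrophage-like cells 77.8% at day 7, that of Csf3r in neutrophil-like cells 92.8% and 62.1%, and that of Flt3 in dendritic-like cells 54.4%. Each library alone gave Csf1r -0.13 and Csf2rb -0.58 at day 14 against day 3 in monocyte/macrophage-like cells, Csf1r shares of 77.8%, 87.2% and 97.3%, a Csf1 share of 87.1% in fibroblast-like cells at day 0 and a Flt3 share of 80.1%. Shares moved under other alternatives too. That of Csf1r went to 86.0% and 84.9% without doublet removal, to 87.4% and 95.5% at resolution 2 and to 87.4% without the extra naming demands. That of Flt3 at day 7 went to 83.3% at resolution 0.5, 83.5% with members among the variable genes and 80.9% with at least 1000 UMIs. That of Csf1 at day 0 went to 98.2% without the extra demands or the shallower copies, and in neutrophil-like cells at day 7 to 22.1% with at most 10% mitochondrial UMIs. Without both copies of shared barcodes, Csf1 in fibroblast-like cells differed from day 0 by -0.33 at day 7 and -0.027 at day 14, Flt3l by -1.28 and -0.97, and the Csf1 share of neutrophil-like cells was 65.5% and 28.3%. At most 10% mitochondrial UMIs lost the calls of Flt3l in fibroblast-like cells at day 7 (-0.98) and Csf2 in T cell-like cells at day 7 (0.88), and members among the variable genes lost that of Csf2rb in dendritic-like cells between day 7 and day 14 (-0.98). Il34, Csf2 and Csf3 had UMIs in only 44, 49 and 12 cells. Without the cell with the most UMIs of a member, both Csf3 calls and the Csf1 call of day 14 against day 3 in endothelial-like cells had too few UMIs to test, while Csf2rb in monocyte/macrophage-like cells at day 14 against day 3 (-1.08) and Csf1r in dendritic-like cells at day 14 against day 3 (-1.10) and day 7 (-1.46) passed the limit. Without the cycling cells, day 0 held too few T cell-like cells to compare. In smooth muscle-like cells, 3 more values passed the limit at day 14: Csf1 against day 7 (-1.13) with each library alone, Csf2ra against day 7 (-1.24) without doublet removal and Flt3l against day 3 (-1.79) when the CPM of single cells was averaged. Spearman's rho in place of Pearson's r changed the genes closest in pattern for 7 of 8 members.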
